A study of Homo sapiens with 10 samples.

Results

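The genes described here are the NRF2 gene and 9 antioxidant genes that NRF2 is known to drive: NFE2L2, NQO1, HMOX1, GCLC, GCLM, SRXN1, TXNRD1, SLC7A11, OSGIN1 and GSR. They were chosen by symbol, though with earlier results of these data known, and all 10 were found among the 62656 genes of the deposited table. The cells were PC3, a human prostate carcinoma line established from a bone metastasis and labelled as epithelial. After a night of starvation they received either the vehicle DMSO or 1 µM of GW3965, a synthetic agonist of the liver X receptors (LXR), for 24 h, in both groups in RPMI-1640 medium with 2 mM L-glutamine. Each group held 5 libraries of 1 cell line with no other genetic change named, and nothing in the labels says that the libraries came from separate cultures, so p-values measure only the spread between these libraries, which may be technical. The question was whether activation of LXR, nuclear receptors for oxysterols, moved the RNA of the NRF2 system.

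NRF2 is a transcription factor whose amount is set mainly at the protein. KEAP1 binds it and presents it to the CUL3 ubiquitin ligase, so that it is degraded, and oxidants or electrophiles that modify KEAP1 let NRF2 build up, pair with small MAF proteins and bind antioxidant response elements. Its target genes make and recycle glutathione, import cystine, reduce thioredoxin and detoxify quinones and heme. RNA levels, as measured here, do not show how much NRF2 protein was present.

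The antioxidant response element is often written with the letters TGACNNNGC, which were searched on both strands from 250 bases before to 50 bases after each gene start in the RefSeq promoter table of GRCh38.p14. The letters occurred in 4687 of 35116 promoters, or 13.3%, and in those of 2 of the 7 members with an entry, GCLM and TXNRD1. The windows below are shown because they place these letters in members whose RNA is described next. They read in the direction of the element, with its letters in capitals and 10 bases on either side.
GCLM, chr1:93909446-93909474, plus strand: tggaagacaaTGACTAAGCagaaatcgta
TXNRD1, chr12:104215670-104215698, plus strand: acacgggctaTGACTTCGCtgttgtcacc
TXNRD1, chr12:104286920-104286948, minus strand: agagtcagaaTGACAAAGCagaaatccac
The match of GCLM began 34 bases before the RefSeq start of the gene and lay on the strand opposite to it; the GENCODE 29 gene begins farther upstream, inside the window shown. TXNRD1 has 2 RefSeq starts, and the matches shown began 99 bases before one and 102 bases before the other. The former start has a further match, not shown, that began 8 bases before it on the opposite strand. None of the matches overlapped the AP-1 letters TGACTCA or their reverse complement TGAGTCA. The promoter entries of NFE2L2, NQO1, GCLC, SRXN1 and OSGIN1 did not hold the letters, and HMOX1, SLC7A11 and GSR were not searched. A match of 9 letters is a description of sequence and not a bound site.

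The libraries held between 30432061 and 41639332 reads, recovered from the steps of the RPKM values (reads per kilobase of gene). These values were scaled between libraries by median-of-ratios size factors, to within a relative deviation of 8.88e-16, and not by total reads. Such a factor is the median over genes of a library's reads relative to each gene's geometric mean. Genes of the 7SL family took 12.0% to 23.2% of the reads of a library. As a check of the labels, the LXR target ABCA1, a cholesterol exporter, rose from 3.43 ± 1.34 to 16.5 ± 2.37 RPKM (SD, n = 5 per group), with adjusted p = 0.00063 by limma. ABCG1 and SREBF1 rose as well. The epithelial keratins KRT8 and KRT18 averaged 36.8 and 49.8 RPKM in DMSO and EPCAM 1.57 RPKM. Among the markers of luminal androgen response, KLK3 had 0 reads in every library, which allows up to 3 reads per library, while TMPRSS2 averaged 1.05 RPKM in DMSO. PTPRC, CD3E and CD68, markers of immune cells, had at most 14 reads in a library. VWF and CDH5 of endothelium and DCN of fibroblasts had at most 8 and PDGFRB of fibroblasts at most 16, whereas PECAM1, also of endothelium, had 112 to 218 reads (0.639 RPKM on average in DMSO) and the fibroblast collagens COL1A1 and COL3A1 averaged 1.00 and 3.15 RPKM in DMSO.

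No change of the antioxidant genes with GW3965 was detected. Of the 9 members with a mean of at least 0.5 RPKM, 0 passed an adjusted p of 0.05 in limma, beside 32 of 20402 genes tested, or 0.157%. At an unadjusted p of 0.05 the members counted 0, beside 6.99% of all genes, and with voom on the recovered reads they counted 0 by either measure. The libraries of the 2 groups overlapped for all 10 members, where 1.84% of tested genes had groups that did not overlap. Of the 9 tested members 8 had a higher mean in GW3965, and their log2 fold changes had a median of 0.09, beside 51.1% of all tested genes and a median of 0.0034. For the 8 tested members other than SLC7A11, the 95% intervals of the log2 fold change lay within -0.19 and 0.37, that is between 0.876-fold and 1.29-fold. Adjusted p-values of the 9 members ran from 0.890 to 0.997.

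**Figure D1:**
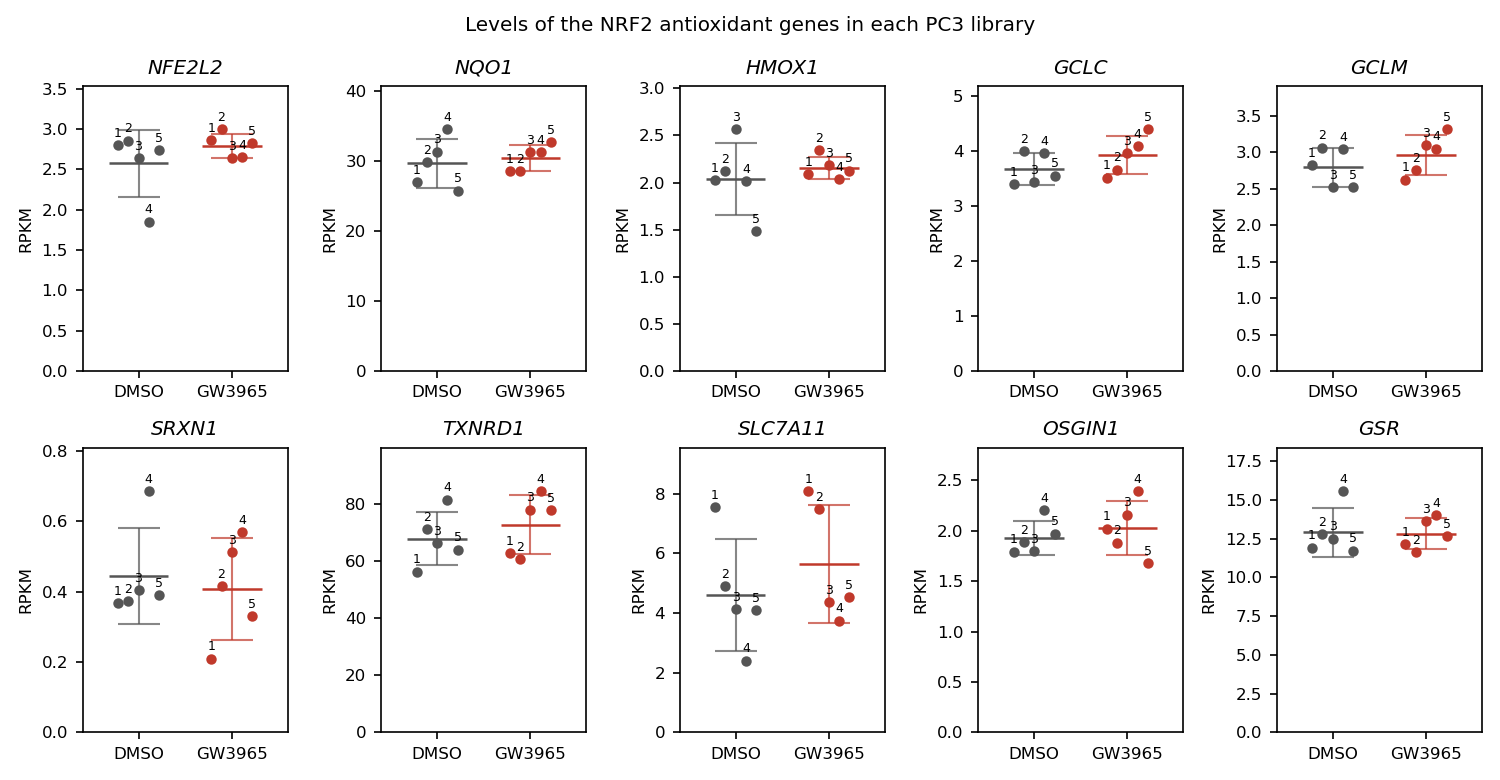
Deposited RPKM of each of the 10 genes on its own linear axis starting at 0, with 1 point per library, numbered by replicate, and the mean ± SD of the 5 DMSO and the 5 GW3965 libraries. In every panel the 2 groups overlap, and SLC7A11 spreads from 2.41 to 8.09 RPKM.

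**Figure D2:**
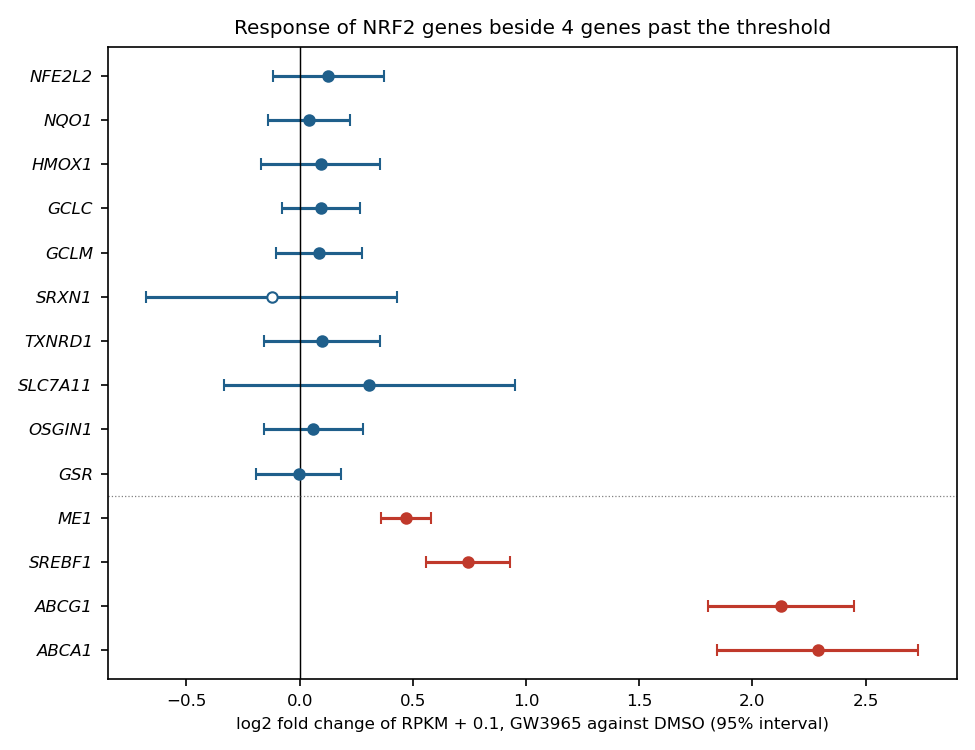
Log2 fold change of GW3965 against DMSO for the members, with 95% confidence intervals from limma, above those of 4 genes past the adjusted threshold (red: ME1, SREBF1, ABCG1 and ABCA1); the open point, SRXN1, comes from the fit with no filter on low values. The interval of every member crosses 0, and that of SLC7A11 reaches from -0.33 to 0.95.

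NFE2L2 on chromosome 2 (GRCh38 177227595 to 177392697, minus strand) encodes NRF2 itself. Its level was 2.80, 2.85, 2.64, 1.85 and 2.73 RPKM in DMSO libraries 1 to 5 and 2.86, 2.99, 2.64, 2.65 and 2.82 RPKM in the GW3965 libraries. All GW3965 libraries and 4 of the DMSO libraries fell in 1 narrow band, and DMSO library 4 lay below it. The means were 2.58 ± 0.414 and 2.79 ± 0.150 RPKM, with a log2 fold change of 0.13 (SE 0.11, adjusted p = 0.898, exact permutation p = 0.349). Without DMSO library 4 the log2 fold change was 0.017. NFE2L2 shares 1054 exonic bases on the same strand with AC019080.1, a gene with 2099 reads against 14357 for NFE2L2, so part of its signal could not be assigned to 1 of them. KEAP1, which holds NRF2 in check, was at 20.6 ± 2.39 RPKM in DMSO, with a log2 fold change of -0.01 (SE 0.10, adjusted p = 0.993). The ratio of NFE2L2 to KEAP1 within a library was 0.128 ± 0.0314 in DMSO and 0.138 ± 0.0221 in GW3965 (exact permutation p = 0.603, 0.849 adjusted over 3 ratios).

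The import of cystine is the point at which glutathione synthesis begins to depend on NRF2. SLC7A11 on chromosome 4 (138164097 to 138242349, minus strand) encodes xCT, the transporting chain of the cystine/glutamate exchanger. Its level was 7.54, 4.89, 4.13, 2.41 and 4.09 RPKM in DMSO and 8.09, 7.48, 4.37, 3.74 and 4.53 RPKM in GW3965. DMSO library 1 and GW3965 libraries 1 and 2 were high and the other 7 lay between 2.41 and 4.89 RPKM, so the spread within each group was wider than the gap between them. The means were 4.61 ± 1.87 and 5.64 ± 1.99 RPKM, and the log2 fold change was 0.31 (SE 0.29, adjusted p = 0.912, exact permutation p = 0.468). It was 0.51 without DMSO library 1 and 0.10 without DMSO library 4. SLC3A2, the heavy chain that anchors xCT in the membrane, was at 12.1 ± 1.05 RPKM in DMSO with a log2 fold change of 0.03 (SE 0.09, adjusted p = 0.975). With 884 to 2884 reads per library, counting error of SLC7A11 was about 2.38%, far below the coefficients of variation of 40.6% in DMSO and 35.2% in GW3965.

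GCLC and GCLM are the catalytic and the modifier subunit of glutamate-cysteine ligase, the rate-limiting enzyme of glutathione synthesis. GCLC on chromosome 6 (53497341 to 53616970, minus strand) was at 3.39, 3.999, 3.43, 3.96 and 3.55 RPKM in DMSO and at 3.51, 3.66, 3.96, 4.09 and 4.39 RPKM in GW3965. Only GW3965 libraries 4 and 5 rose above the highest DMSO library. The log2 fold change of GCLC was 0.09 (SE 0.08, adjusted p = 0.890), with a 95% interval from -0.08 to 0.27. GCLM on chromosome 1 (93885205 to 93909456, minus strand) was at 2.83, 3.07, 2.52, 3.05 and 2.52 RPKM in DMSO and at 2.63, 2.76, 3.101, 3.05 and 3.32 RPKM in GW3965, where library 5 was again the highest. Its log2 fold change was 0.08 (SE 0.09, adjusted p = 0.924). Leaving out GW3965 library 5 lowered the log2 fold changes to 0.05 for GCLC and 0.05 for GCLM, and leaving out GW3965 library 1 raised them to 0.13 for each. The ratio of the subunits varied less between the GW3965 libraries than between the DMSO libraries, while its mean was nearly the same in both groups. That difference in spread was not tested, and counting error alone was about 2.92% for GCLC and 4.22% for GCLM. GCLC stood at 1.32 ± 0.0784 times GCLM in DMSO and at 1.32 ± 0.0255 times in GW3965, and the difference of the log2 ratios was 0.0084 (exact permutation p = 0.849, also after adjustment over 3 ratios).

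GSR on chromosome 8 (30678061 to 30727999, minus strand), glutathione reductase, returns oxidized glutathione to its reduced form with NADPH. Its level was 11.9, 12.8, 12.5, 15.6 and 11.7 RPKM in DMSO and 12.2, 11.6, 13.6, 14.004 and 12.7 RPKM in GW3965. Libraries 4 were the highest of either group, and the means of 12.9 ± 1.56 and 12.8 ± 0.986 RPKM were the closest to each other of all tested members on the log2 scale. The log2 fold change was -0.0043 (SE 0.09, adjusted p = 0.997), and its sign turned when DMSO library 4 was left out (0.07).

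In the thioredoxin branch, TXNRD1 was the most abundant member. This gene on chromosome 12 (104215779 to 104350305, plus strand), whose promoter windows are shown above, encodes the cytosolic thioredoxin reductase. Its level was 56.3, 71.2, 66.3, 81.6 and 64.1 RPKM in DMSO and 62.8, 60.8, 78.1, 84.7 and 77.9 RPKM in GW3965. GW3965 libraries 1 and 2 were low and its libraries 3 to 5 high, with DMSO library 4 among the high ones. The means were 67.9 ± 9.34 and 72.9 ± 10.5 RPKM and the log2 fold change was 0.10 (SE 0.12, adjusted p = 0.937). With 1 library left out it ranged from 0.04 (without DMSO library 1) to 0.17 (without DMSO library 4). TXNRD1 and GSR both draw on NADPH. The ratio of TXNRD1 to GSR was 5.26 ± 0.323 in DMSO and 5.66 ± 0.454 in GW3965 (exact permutation p = 0.151, 0.452 adjusted over 3 ratios).

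SRXN1 on chromosome 20 (646615 to 653370, minus strand) encodes sulfiredoxin, which repairs over-oxidized peroxiredoxins. It had the lowest level of the members, 0.367, 0.373, 0.405, 0.686 and 0.391 RPKM in DMSO and 0.209, 0.416, 0.512, 0.570 and 0.330 RPKM in GW3965, from 18 to 66 reads per library. DMSO library 4 was the highest and GW3965 library 1 the lowest. SRXN1 was under the limit of 0.5 RPKM for the test; with no filter its log2 fold change was -0.12 (SE 0.25, adjusted p = 0.961), with a wide 95% interval from -0.68 to 0.43. Of the 2649 stretches of 50 bases in its annotated exons, 84.7% also occurred in another gene, AL121758.1, on the same strand, so its reads could be lost or shared in counting and its low level is uncertain.

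NQO1, HMOX1 and OSGIN1 act in detoxification and stress. NQO1 on chromosome 16 (69706996 to 69726951, minus strand) reduces quinones and is the classic reporter of NRF2. Its level was 27.0, 29.8, 31.4, 34.5 and 25.8 RPKM in DMSO and 28.5, 28.6, 31.2, 31.3 and 32.7 RPKM in GW3965, so that every GW3965 library fell inside the range of the DMSO libraries. The log2 fold change of NQO1 was 0.04 (SE 0.08, adjusted p = 0.965), with a 95% interval from -0.14 to 0.22.

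HMOX1 on chromosome 22 (35380361 to 35394214, plus strand), heme oxygenase, breaks down heme. Its level was 2.02, 2.12, 2.56, 2.02 and 1.49 RPKM in DMSO and 2.09, 2.34, 2.19, 2.03 and 2.13 RPKM in GW3965. Here too the GW3965 libraries lay inside the DMSO range, and DMSO libraries 3 and 5 marked its ends. The log2 fold change was 0.09 (SE 0.12, adjusted p = 0.944). HMOX1 had 111 to 216 reads per library, and its coefficient of variation was 18.8% in DMSO and 5.49% in GW3965, beside a counting error of 7.60%.

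OSGIN1 on chromosome 16 (83948282 to 83966332, plus strand) is an oxidative stress-induced growth inhibitor. It was at 1.79, 1.89, 1.79, 2.203 and 1.97 RPKM in DMSO and at 2.02, 1.88, 2.16, 2.39 and 1.68 RPKM in GW3965. GW3965 held both the highest and the lowest library, and the log2 fold change was 0.06 (SE 0.10, adjusted p = 0.957). It was 0.0013 without GW3965 library 4 and 0.12 without GW3965 library 5. OSGIN1 shares 481 exonic bases on the same strand with AC009119.2, a gene with no entry in the deposited table. Of its stretches of 50 bases, 12.1% also occurred in that gene. The share found in any other gene was 15.6% for NFE2L2, 15.3% for NQO1, 9.19% for SLC7A11 and 6.24% for GCLC. It was 1.31% or less for GCLM, HMOX1, TXNRD1 and GSR.

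By level per length over all 10 libraries the order was TXNRD1 (70.4 RPKM), NQO1 (30.1), GSR (12.9), SLC7A11 (5.13), GCLC (3.79), GCLM (2.88), NFE2L2 (2.68), HMOX1 (2.099), OSGIN1 (1.98) and SRXN1 (0.426 RPKM). TXNRD1 stood at the 97.0 percentile of tested genes and OSGIN1 at the 38.8 percentile, so the reductases lay among the more abundant transcripts of PC3 cells. The ranges of SLC7A11 and GCLC overlapped in both groups, as did those of GCLM and NFE2L2 and those of HMOX1 and OSGIN1, and NFE2L2 overlapped HMOX1 in DMSO. The order depends on the gene length used, and so does the size of a ratio between 2 genes, such as GCLC to GCLM or NFE2L2 to KEAP1. The authors' RPKM implied a length of 14975 bases for NFE2L2. In GENCODE 29 its exons together cover 5979 bases and its longest coding transcript 2853 bases. If all its reads fell on that transcript, its level would be 14.1 RPKM. With every member treated so, its rank would move from 7 to 4, behind GSR. Ratios of RPKM between the groups do not depend on the length. The log2 fold changes do so slightly, through the 0.1 RPKM added before the log2. That of NFE2L2 was 0.127 with 0.1 added, 0.132 with 0.01 and 0.093 with 1.

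The members did not vary as 1 block across the libraries. The first principal component of the reads, over the 14375 genes that averaged 100 reads or more per library, held 41.4% of the variance and set DMSO library 1 and GW3965 libraries 1 and 2 (scores of 17.7 to 19.7) apart from the other 7 (-21.9 to 3.91). SLC7A11 had the loading of rank 18 among these genes counted from the positive end, whereas NFE2L2 came at rank 1608 and TXNRD1 at rank 13713, near the opposite end. In the 3 libraries that stood apart SLC7A11 was at 7.48 to 8.09 RPKM and TXNRD1 at 56.3 to 62.8 RPKM, against 2.41 to 4.89 and 64.1 to 84.7 RPKM in the other 7. Reads of 83 histone genes, which mark DNA replication, made up 0.268% to 0.286% of all reads in the 3 libraries and 0.363% to 0.450% in the others. Their part in the members' values was not tested. DMSO library 4, at the lower end of the component, held the lowest NFE2L2 and SLC7A11 of all libraries together with the highest NQO1, GSR and SRXN1.

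**Figure D3:**
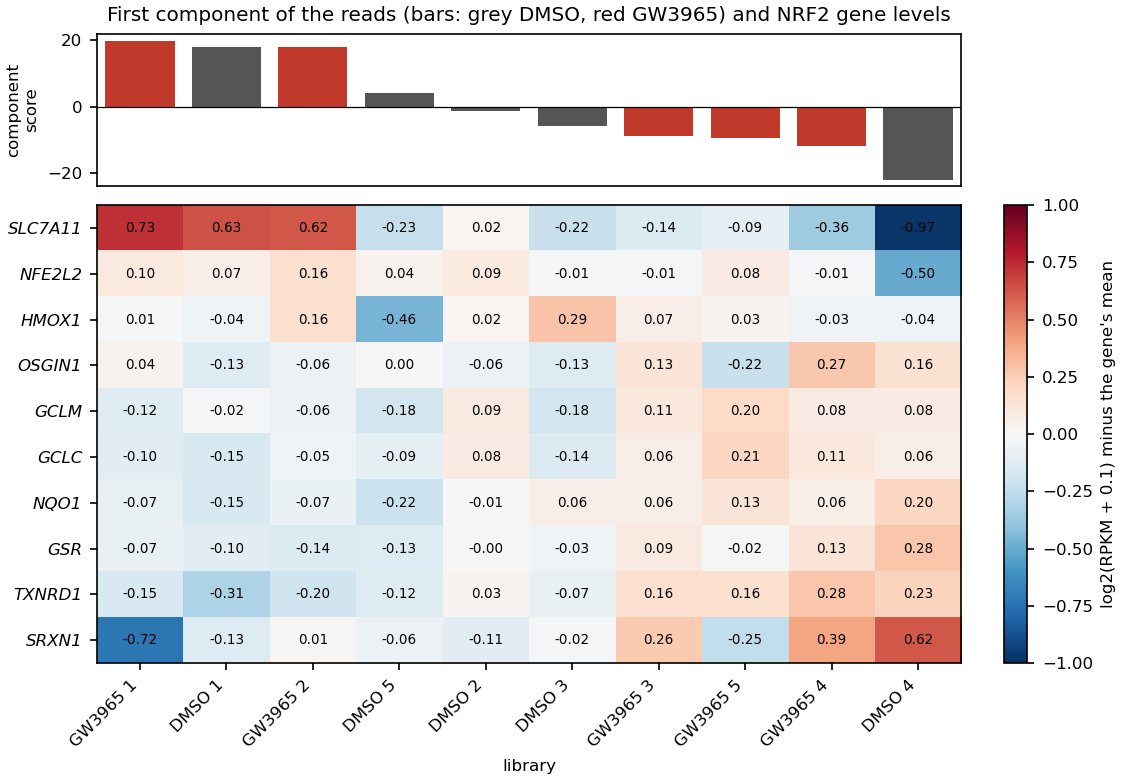
Bars give the score of each library on the first principal component, from high to low (grey DMSO, red GW3965), and the colours and printed values below them the log2(RPKM + 0.1) of each member minus its mean over the 10 libraries. SLC7A11 is high and TXNRD1 low in the 3 libraries at the left, while NQO1 and GSR are highest in DMSO library 4.

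Since this component divides both groups, the comparison was repeated with it as a covariate and without the 3 libraries. The component was computed from these same reads, those of the tested members included. The covariate can therefore take up part of the members' own variation, which limits the reading of its p-values. With the covariate the log2 fold change of TXNRD1 was 0.14 (SE 0.04, unadjusted p = 0.00481, adjusted p = 0.169) and that of SLC7A11 0.21 (SE 0.09, unadjusted p = 0.0466, adjusted p = 0.393), and 0 members passed although the genes called rose from 32 to 146. Without the 3 libraries the log2 fold changes were 0.19 (SE 0.09, adjusted p = 0.545) for TXNRD1 and 0.16 (SE 0.22, adjusted p = 0.877) for SLC7A11, again with 0 members past the threshold.

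**Figure D4:**
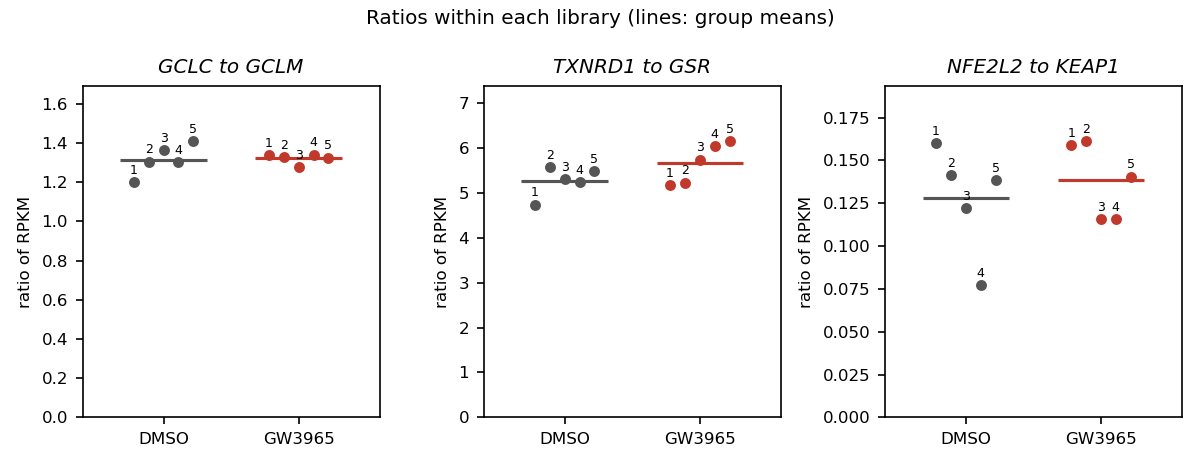
Ratios within each library of GCLC to GCLM, TXNRD1 to GSR and NFE2L2 to KEAP1, 1 point per library with a line at the mean of the 5 per group. The mean GCLC to GCLM ratio is 1.32 in both groups, and the groups overlap in all 3 ratios.

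The genes around the members were described by 4 lists of known pathway genes. Of all tested genes, 0.157% passed the threshold and 6.99% had an unadjusted limma p under 0.05, while 51.1% were higher in GW3965. Groups that did not overlap were found for 1.84% of all tested genes. Such genes numbered 2 among regulators and partners, 3 among further targets, 1 in the glutathione system and 0 in the thioredoxin list. Of 15 NRF2 regulators and partners, 0 passed the threshold, 9 were higher in GW3965 and the median log2 fold change was 0.02. At an unadjusted p of 0.05 the list counted 3 genes, NFE2L3, SQSTM1 and BTRC. NFE2L3, a relative of NRF2 in the CNC family, was at 13.0 ± 0.999 RPKM in DMSO with a log2 fold change of 0.30 (SE 0.06, adjusted p = 0.118), the highest of the list; its DMSO libraries ended at 14.4 RPKM and its GW3965 libraries began at 15.6 RPKM. The lowest was RBX1, a subunit of the CUL3 ligase, at -0.10 (adjusted p = 0.900).

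Of 34 further NRF2 targets 26 were tested, and ME1 alone passed. ME1, the cytosolic malic enzyme that makes NADPH and is also a known gene of lipid synthesis, rose from 21.2 ± 1.16 RPKM, with libraries between 19.7 and 22.9, to 29.4 RPKM, with libraries between 28.9 and 30.5. Its log2 fold change was 0.47 (SE 0.05, adjusted p = 0.00266), it was the highest of the list, and it passed in 22 of 23 alternatives, the exception being the one with 7 libraries. The list had a median of 0.10 and 18 higher genes, and 6 genes passed at an unadjusted p of 0.05: ME1, FTH1, ABCC3, PIR and ABCC4 with higher and AKR1C3 with lower values in GW3965. AKR1C3, an aldo-keto reductase that also makes androgens, was the lowest at -0.40 (SE 0.15, adjusted p = 0.591), from 0.702 to 0.507 RPKM. The 8 targets not tested, among them AKR1B10, AKR1C1 and AKR1C2, were at most 0.156 RPKM on average.

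The glutathione system counted 22 tested genes of 23, of which 0 passed, 15 were higher and the median was 0.08. Its extremes were GPX1, a glutathione peroxidase, at 0.31 (SE 0.11, adjusted p = 0.563) and CHAC2, which degrades glutathione, at -0.10 (adjusted p = 0.974). Of 18 genes for thioredoxins, peroxiredoxins and other antioxidant enzymes 0 passed, 9 were higher and the median was 0.0036. PRDX5 was highest at 0.20 (SE 0.07, adjusted p = 0.523) and PRDX3, the mitochondrial peroxiredoxin, lowest at -0.08 (adjusted p = 0.906). At an unadjusted p of 0.05 limma gave GPX1 and MGST3 in the former list and PRDX5 in the latter. SOD2 was not used here.

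**Figure D5:**
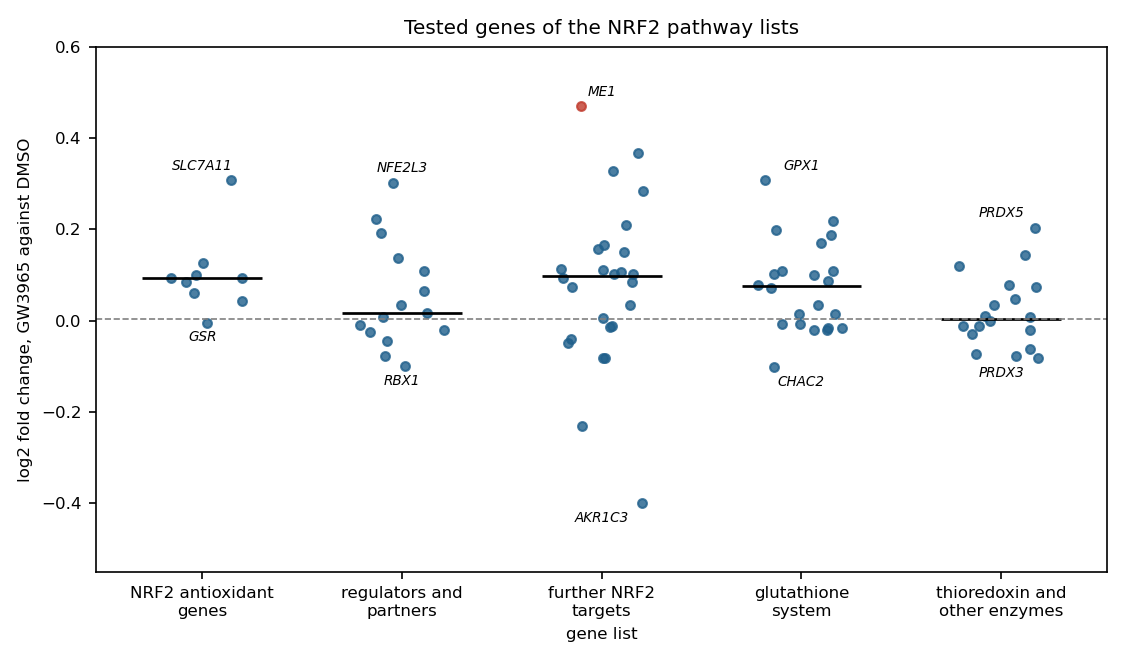
Log2 fold changes of GW3965 against DMSO for the tested genes of the members and of the 4 pathway lists, 1 point per gene, with a bar at each list's median and a dashed line at the median of all tested genes. ME1 (red), at 0.47, is the only point past the adjusted threshold, and the medians lie between 0.0036 and 0.10.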

How the data were processed

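RNA of 10 PC3 libraries was sequenced as single reads of 50 bases. The submitters' processing notes name HISAT2 2.1.0, HTSeq 0.11.2 and hg38, whereas the paper's methods name another Hisat2 release and the mouse genome; all 62656 gene identifiers were human. The strand setting of the counting is not given in the sources used here, and the labels name polyA RNA where the protocol names a total RNA kit. The authors deposited RPKM values, 1 column per library. All values above 0 came out as whole reads (100%, to within 0.01 read), which gave the depth. Counting errors cover the sampling of reads only, whereas the intervals of fold changes rest on the spread between libraries.

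Genes that averaged 0.5 RPKM or more were fitted with limma 3.58.1 in R 4.3.3 (lmFit, eBayes with trend) on log2(RPKM + 0.1), two-sided, with Benjamini-Hochberg adjustment over 20402 genes and a threshold of 0.05. Fold changes are on this scale, which understates those of low genes. Single values and ratios were compared by two-sided exact permutation over 252 labellings, with 0.00794 as the smallest p. The script was tested on simulated data. Members, lists and rules were chosen with earlier results of these data known. Named were all members, the called and the extreme genes of each list, SLC3A2, KEAP1 and 3 LXR targets. Of the genes overlapping a member, AC019080.1, AL121758.1 and AC009119.2 were named and others were not. FTH1, SQSTM1 and others given for an unadjusted p were named after their values were seen. Annotation was GENCODE 29, promoters were from RefSeq. Of 44230 genes with reads and a length in GENCODE 29, 25981 had the authors' length. Overlaps in the authors' gene models may therefore differ from those given here. Alternatives were other pseudocounts, filters, scalings and fits, voom on the recovered reads, and each library left out. Results for some marker genes are not reported here.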

Additional observations from a re-analysis of the deposited data

Results flagged for a closer look

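A sample stood far from the other 4 of its group in 3 of 26 groups examined, where the share of the group's range taken by its gap exceeded 0.71; chance gives about 1 in 20 groups, or 1.3 here. NFE2L2 was lowest in DMSO library 4, where the gap took 0.820 of the range (1.85 RPKM against 2.64 to 2.85 RPKM in the other DMSO libraries). SRXN1 was highest in the same library, with a gap of 0.848 of the range (0.686 RPKM, from 66 reads). The log2 ratio of GCLC to GCLM was lowest in GW3965 library 3, with a gap of 0.753 of the range.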

How the results depend on the processing

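In all 23 alternatives 0 members passed the threshold, while the called genes among all tested moved from 32 to 21 with no filter, 20 with no intensity trend, 56 with library weights, 63 with voom, 146 with the first component as covariate and 18 without the 3 libraries that stood apart. Leaving out 1 library each gave 17 to 38 genes, 17 without GW3965 library 2 or 4, 18 without DMSO library 3 and 19 without GW3965 library 3. Of the other pathway genes 2 passed with the component (ME1 and NFE2L3) and 0 without the 3 libraries. Small differences changed sign: with 1 library left out NQO1 ranged from -0.00597 (without DMSO library 5) to 0.0994, HMOX1 from -0.00984 (the same library) to 0.177 and GSR from -0.0368 to 0.0651 (without DMSO library 4). GSR also turned to 0.0138 and 0.0293 without GW3965 library 1 or 2, 0.0554 with library weights, 0.0187 with the component and 0.0378 without the 3 libraries. The log2 ratio of GCLC to GCLM turned to -0.0325 without the 3 libraries and ranged from -0.0242 (without DMSO library 1) to 0.0336 with 1 library left out. That of NFE2L2 to KEAP1 ranged from -0.0305 (without DMSO library 4) to 0.233, and that of TXNRD1 to GSR from 0.0666 to 0.137. With the length of the longest coding transcript, an alternative added after the levels were seen, the rank by level became 4 for NFE2L2, 6 for SLC7A11, 7 for OSGIN1, 8 for GCLM and 9 for HMOX1. The cause of these shifts was not tested, apart from the length.

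Libraries that share a replicate number showed little pairing in the correlation of their deviations, which ran between -0.14 and 0.16. Of 5 DMSO libraries 1 correlated best with its own number. With the replicate number as a block in limma 16 genes and 0 members passed. SLC7A11 was higher in GW3965 in each pair of libraries with the same number, and with the block it had an unadjusted p of 0.0221 (adjusted p = 0.468). The block lowered the SE of the log2 fold change for every tested member except GCLM. The SE fell from 0.29 to 0.11 for SLC7A11 and from 0.12 to 0.08 for TXNRD1, and rose from 0.09 to 0.10 for GCLM. The depth limits SRXN1 and HMOX1 most, with at most 66 and 216 reads in a library.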
